A study of Mus musculus with 8 samples.

Results

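The mRNAs that encode splicing factors were followed through RNA immunoprecipitation (IP) from mouse embryonic stem (ES) cells. Members were all genes whose name on the array began with Sf3a or Sf3b, Sfrs or Srsf, Hnrp or Hnrnp, Snrp, Prpf or U2af. This gave 75 genes on 156 probes, of 27676 genes on 41174 probes in all. For each gene the probe with the highest mean signal was used, after probes with an outlier spot were set aside, and the other probes served as a check. A gene was tested if all arrays of some group had its probe well above background, which 74 members and 14676 genes of the array passed; Hnrnpul2, an hnRNP U-like gene, was well above background on 0 of the 8 arrays.

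The cells were Dazl-GFP, a single transgenic mouse ES line described as re-derived. All groups were grown on γ-irradiated feeder mouse embryonic fibroblasts in 15% serum with leukemia inhibitory factor, 1 µM of the MEK inhibitor PD0325901 and 3 µM of the GSK3β inhibitor CHIR99021, the pair called 2i. The 3 groups were the input, RNA of the cells without antibody (3 arrays), RNA recovered by native IP with an antibody to PABP1, the cytoplasmic poly(A) binding protein (2 arrays), and RNA recovered by native IP with an antibody to GFP (3 arrays). DAZL is an RNA-binding protein best known from germ cells; the labels do not say whether GFP is fused to it in this line or reports its gene. An IP with a nonspecific antibody was not analysed here, and nonspecific recovery was not measured apart. Separate cultures are not named in the labels for the replicates, and p-values therefore measure only how these samples spread, perhaps for technical reasons alone.

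Splicing removes introns through the spliceosome, which is built from small nuclear RNA-protein particles (snRNPs) that share a ring of Sm proteins. U2AF and the SF3A and SF3B complexes recognise the 3′ end of the intron and the branch point, and the PRP factors act as the spliceosome matures and catalyses. SR proteins and hnRNPs bind exons and introns and decide which sites are used; many of their own genes are known to make alternative transcripts with poison exons or retained introns that limit protein output.

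Signal is given as log2 of the processed intensity minus the 75th percentile of its array, so that values can be set side by side across arrays for 1 probe, and not between probes. A difference is the difference of 2 group means on that log2 scale. "Higher" and "lower" mean an adjusted p below 0.05 in limma, fitted over all tested genes with Benjamini-Hochberg adjustment. The 75th percentile stood at 5.99 to 6.79 (log2 intensity) in the inputs, 6.71 and 7.19 in the PABP1 IPs and 7.30 to 7.51 in the GFP IPs, and 41.5% to 52.6% of probe spots were well above background. Correlations between arrays, across genes, were 0.975 to 0.993 within groups and 0.856 to 0.932 between groups. The 8 arrays all had the 10 ES cell markers well above background. Of 16 feeder fibroblast markers, 0 were higher and 11 lower in the GFP IP than in input by limma (0 and 11 at unadjusted p below 0.05, and 0 and 3 with arrays scaled to their medians), and 6 were higher and 3 lower in the PABP1 IP. Their summed signal, as log2, was 6.89 to 7.33 in the inputs, 6.96 and 7.15 in the PABP1 IPs and 5.63 to 6.35 in the GFP IPs, and 12 to 16 of the 16 were above background on each array. Their part in the results below was not tested. In such bulk samples, fewer feeder cells, less RNA per cell and less recovery of that RNA by the IP cannot be told apart. Noncoding nuclear RNAs were lower in both IPs, 4 of the 4 tested; Malat1 fell by 4.98 in the GFP IP and was not well above background on either PABP1 IP array.

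In the GFP IP, 25 of the 74 tested splicing factor mRNAs were higher than in input and 28 were lower. Over the whole array 21.4% of genes were higher and 43.3% lower, 64.7% in all. The members ran from −2.51 for Sf3b3 to 3.18 for Hnrnpll, with a median of −0.21 against −0.51 over all tested genes, and 47 of the 74 stood above that median gene. The PABP1 IP had 21 members higher and 28 lower than input, where 34.4% of all genes were higher and 25.3% lower, 59.6% in all. Their median was −0.28 against 0.25 over all genes, and 31 of 74 stood above the median gene. Between the IPs, 33 members were higher in the GFP IP and 19 higher in the PABP1 IP, against 23.8% and 47.6% of all genes, 71.3% in all. The median member differed by 0.21 and the median gene by −0.68.

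These counts depend on where each array is set to 0. With arrays scaled to their medians, the median gene moved from −0.51 to 0.02 in the GFP IP over input and the members' split became 29 higher and 16 lower; with quantile normalization it was 28 and 21. Over all 14676 tested genes the splits were then 4466 and 3102, and 3706 and 5224. Quantile normalization of the PABP1 IP over input gave 16 higher and 34 lower, and 4548 and 4277 over all genes. For the GFP IP over the PABP1 IP the split was 42 and 14 with median scaling, 47 and 11 with quantile normalization, and 40 and 16 with the percentile taken over probes detected on all arrays. Over all genes these were 4298 and 4866, 4161 and 5495, and 4477 and 5208. The gap between the members' median and the median gene is the same under any shift of whole arrays: 0.30 for the GFP IP and −0.52 for the PABP1 IP, each against input, and 0.89 between the IPs. With a normexp background the counts dropped to 8 and 9, 9 and 7, and 10 and 11 in the order GFP IP and PABP1 IP, each over input, then the IPs compared. Over all genes they were 675 and 1156, 1736 and 702, and 1168 and 3162. The gap itself was then −0.0033, 0.025 and 0.086 in that order. Without the filter on dim probes the gap was 0.54, 0.045 and 0.43. The arrays lay on 2 slides that each held all groups. With the slide as a block the splits were 27 and 33, 28 and 37, and 36 and 21 in the same order. Over all genes that block gave 3595 and 7481, 6365 and 4488, and 3937 and 8203. On slide 1 alone they were 22 and 25, 19 and 28, and 25 and 19, and on slide 2 alone 22 and 18, 17 and 24, and 29 and 16. All 53, 49 and 52 called members had the same sign on each slide alone. Each slide holds part of the arrays that gave these calls, so this agreement is not an independent replication.

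**Figure D1:**
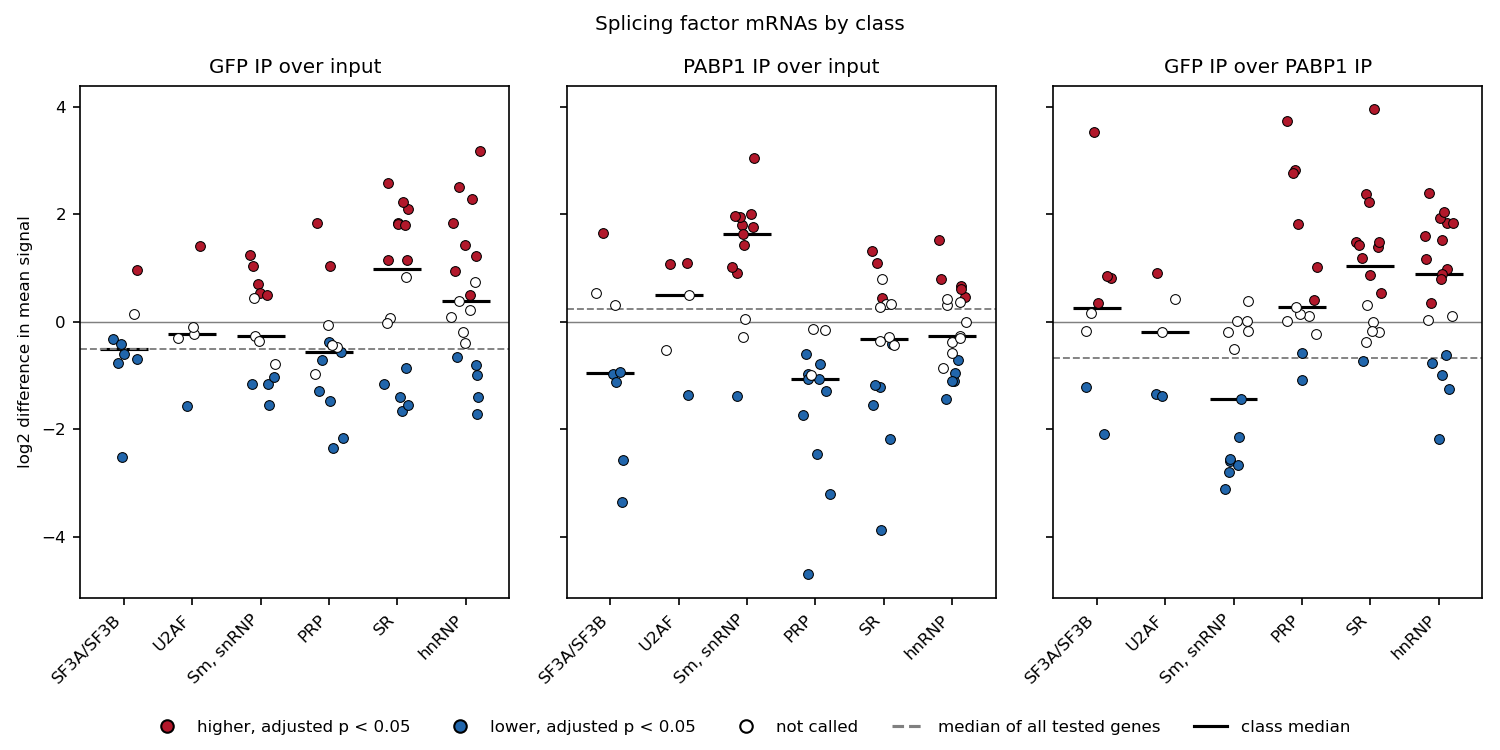
Log2 difference in mean signal (vertical axis) of each tested splicing factor mRNA, by class (horizontal axis), for the 3 comparisons; points are genes, red higher and blue lower at adjusted p below 0.05, short bars class medians and the dashed line the median of all tested genes. The Sm and snRNP class has its median at 1.64 in the PABP1 IP over input and −1.43 in the GFP IP over the PABP1 IP, while the PRP class has its median at −1.07 in the PABP1 IP over input.

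The 2 comparisons with input share the input arrays, and their calls are given side by side. By these calls, 18 members were lower in both IPs, 12 were higher in both, 4 were higher in the GFP IP and lower in the PABP1 IP, and 5 the reverse. A further 9 were higher in the GFP IP with no call in the PABP1 IP, and 11 had no call in either. The same combinations were not counted over all genes, so these numbers do not show whether the members differ from the array.

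Among the 8 mRNAs of SF3A and SF3B, which make up the core of the U2 snRNP at the branch point, 1 was higher and 6 lower in the GFP IP than in input. The PABP1 IP had 1 higher and 5 lower. The 6 lower calls in the GFP IP became 3 or 4 when any 1 array was left out, and 1 with arrays scaled to their medians, where the class median turned from −0.51 to 0.02. Sf3b1, the subunit that holds the branch point helix, had signals of −0.43, −0.26 and −0.18 in the inputs, −3.00 and −2.74 in the PABP1 IPs, and 0.54, 0.85 and 0.62 in the GFP IPs. The 3 groups did not overlap, with the PABP1 IPs lowest and the GFP IPs highest. Sf3b1 was higher in the GFP IP than in input by 0.96 ± 0.14 (SE; adjusted p = 9.08e-04), lower in the PABP1 IP by a difference of −2.58 ± 0.16 (adjusted p = 2.71e-05), and 3.54 ± 0.16 apart between the IPs.

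Sf3b3, the large scaffold subunit of SF3B, had 3.02, 3.46 and 3.42 in the inputs, 0.00 and −0.10 in the PABP1 IPs and 0.63, 0.83 and 0.92 in the GFP IPs. Both IPs lay below all inputs, with differences of −2.51 ± 0.16 for the GFP IP (adjusted p = 3.08e-05) and −3.35 ± 0.18 for the PABP1 IP (adjusted p = 1.91e-05). This probe was designed on a cDNA clone. The gene's brighter probe had been set aside for an outlier spot on 1 GFP IP array; with that array left out, it differed by 0.63 in the GFP IP and −0.54 in the PABP1 IP, so the probes of Sf3b3 did not give 1 direction in the GFP IP.

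Sf3b5, a small SF3B subunit, moved the other way in the PABP1 IP. Its signals were 5.51, 5.38 and 5.07 in the inputs, 7.09 and 6.87 in the PABP1 IPs and 4.87, 5.02 and 4.80 in the GFP IPs. The PABP1 IPs lay above all other arrays, with a difference from input of 1.66 ± 0.17 (adjusted p = 1.65e-04). Its difference of −0.42 in the GFP IP (adjusted p = 0.042) lost its call when any 1 of 6 arrays was left out, with values of −0.55 to −0.33 and adjusted p up to 0.131, and had the other sign, 0.11, with arrays scaled to their medians.

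Of the 5 U2AF genes, U2af2 encodes the subunit that binds the polypyrimidine tract. Its signals were −0.76, −0.50 and −1.02 in the inputs, 0.23 and −0.75 in the PABP1 IPs and 0.69, 0.80 and 0.46 in the GFP IPs. The GFP IPs lay above all others, 1.41 ± 0.27 over input (adjusted p = 0.00302), while the PABP1 IPs straddled the inputs. U2af1, the small subunit that reads the AG at the intron end, had 6.18, 6.04 and 6.20 in the inputs, 7.24 and 7.24 in the PABP1 IPs and 6.09, 5.63 and 5.98 in the GFP IPs. It was higher in the PABP1 IP by 1.10 ± 0.16 (adjusted p = 9.43e-04), and its GFP IP and input values overlapped. The 2 subunits of the same heterodimer were thus each higher in a different IP; U2af1 was lower in the GFP IP than in the PABP1 IP, at −1.34 ± 0.16, and U2af2 higher, at 0.91 ± 0.30, a call lost without PABP1 IP 2, GFP IP 1 or GFP IP 2, with values of 0.42 to 1.40. With quantile normalization U2af1 lost its calls, at 0.29 in the PABP1 IP over input (adjusted p = 0.204) and −0.20 between the IPs (adjusted p = 0.345). U2af1l4, a paralog of the small subunit, was higher in the PABP1 IP by 1.07 ± 0.15. Zrsr2, which serves introns of the minor spliceosome, had 2.23, 2.15 and 2.35 in the inputs, 0.82 and 0.94 in the PABP1 IPs and 0.65, 0.74 and 0.67 in the GFP IPs. It was lower in both IPs, at −1.56 ± 0.11 and −1.36 ± 0.12, on the probe described here. Its paralog Zrsr1 was not called in any comparison.

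The Sm and snRNP proteins were the class most often higher in the PABP1 IP. Of 13 genes, 10 were higher and 1 lower there than in input, with a class median of 1.64 that stayed between 1.05 and 1.93 under every scaling and background setting tried. In the GFP IP 5 were higher and 4 lower, or 6 and 3 with arrays scaled to their medians or quantile normalized. Between the IPs 0 were higher in the GFP IP by limma, also at unadjusted p, and 7 were lower, with a median of −1.43; the split was 1 and 7 with median scaling and 5 and 7 with quantile normalization. Snrpd3 had the highest value of the class between the IPs, 0.39 (adjusted p = 0.12).

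The 8 Sm ring genes, Snrpb, Snrpd1, Snrpd2, Snrpd3, Snrpe, Snrpf, Snrpg and Snrpn, were set apart after their values were seen. Of these, 7 were higher in the PABP1 IP, between 1.03 and 3.06, and Snrpd3 differed by 0.06. The count stayed at 7 under each scaling tried, with values between 0.69 and 3.13, and was 6 with the normexp background. Snrpn, an imprinted gene that encodes a close relative of the SmB protein, had the largest difference. Its signals were −0.65, −0.59 and −0.71 in the inputs, 2.49 and 2.32 in the PABP1 IPs and −0.21, −0.06 and −0.16 in the GFP IPs. The PABP1 IPs stood apart from all other arrays, at 3.06 ± 0.12 over input (adjusted p = 1.41e-05), and the GFP IPs lay just above the inputs, at 0.51 ± 0.11 (adjusted p = 0.00517).

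Snrpd2, an Sm ring subunit, had 6.33, 6.21 and 5.77 in the inputs, 8.33 and 7.76 in the PABP1 IPs and 4.91, 5.09 and 4.81 in the GFP IPs. It was above input in the PABP1 IP, by 1.94 ± 0.23, below input in the GFP IP, by a difference of −1.17 ± 0.21, and had the lowest difference between the IPs of any member, −3.11 ± 0.23 (adjusted p = 2.95e-05). Snrpg and the U1-specific Snrpc had the same order, with 1.64 ± 0.28 and 1.43 ± 0.16 in the PABP1 IP and −1.02 ± 0.25 and −1.16 ± 0.14 in the GFP IP. The GFP IP call of Snrpg was lost with arrays scaled to their medians (−0.49, adjusted p = 0.0782) and with quantile normalization (−0.25, adjusted p = 0.0573). Snrpb, which encodes SmB itself, differed from that order. It had 3.21, 2.98 and 3.31 in the inputs, 4.81 and 5.04 in the PABP1 IPs and 4.71, 4.0 and 4.53 in the GFP IPs. All IP arrays lay above all inputs, by 1.76 ± 0.23 for the PABP1 IP and 1.24 ± 0.21 for the GFP IP (adjusted p = 0.00154), and the IPs did not differ by the test (−0.51 ± 0.23, adjusted p = 0.0793). Snrpd1 was likewise higher in both, at 1.03 ± 0.19 and 1.04 ± 0.17.

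The genes of proteins specific to the U1 or U2 snRNP were less uniform. Snrpa1, a U2 protein, was higher in the PABP1 IP by 1.80 ± 0.22, and Snrpb2, its U2 partner, by 0.90 ± 0.20. That second call was lost without PABP1 IP 1, with an adjusted p of 0.0547 and values of 0.74 to 1.06 over the arrays left out, and with quantile normalization (0.40, adjusted p = 0.101). Snrnp70, the U1 protein that binds the first stem-loop of U1 RNA, was the 1 member of the class lower in the PABP1 IP. It had 8.03, 8.06 and 7.90 in the inputs, 6.68 and 6.55 in the PABP1 IPs and 6.45, 6.48 and 6.43 in the GFP IPs. Both IPs lay below all inputs, at −1.38 ± 0.12 (adjusted p = 8.06e-05) and −1.54 ± 0.11 (adjusted p = 4.01e-05). Several of these small genes have close relatives or pseudogenes elsewhere in the genome; probe sequences were not used here, and signal from such copies was not separated.

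**Figure D2:**
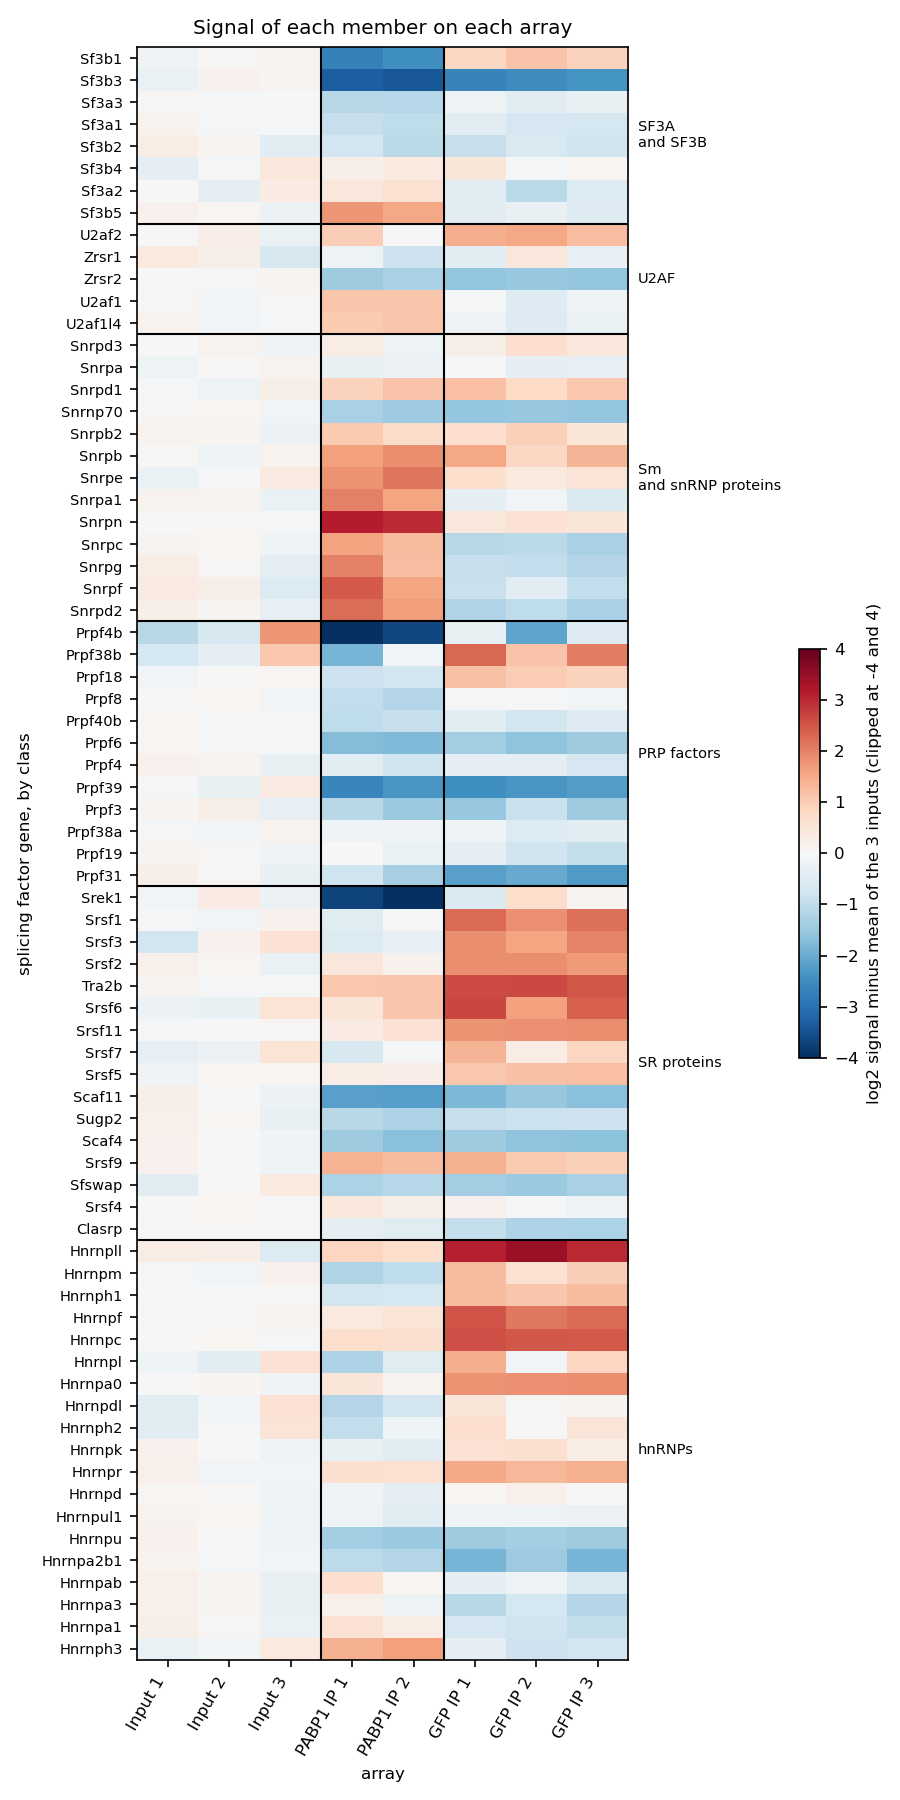
Log2 signal minus the mean of the 3 inputs (colour, clipped at −4 and 4) for 73 of the 74 tested members (rows, by class, then by the difference between the IPs) on each array (columns). In the Sm and snRNP block the PABP1 columns are red for most genes, led by Snrpn, whereas in the PRP block they are blue for most genes; Prpf4b and Prpf38b differ between arrays of 1 group.

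The PRP factors were lower in the PABP1 IP in 10 of 13 cases and higher in 0 by limma, also at unadjusted p, with a class median of −1.07; the split was the same under each scaling tried, and 2 were lower with the normexp background. On these first probes all 13 differences were below 0, from −4.70 to −0.13. On their second probes Prpf18, Prpf4 and Prpf4b had no call, and Prpf31 was higher, at 2.37. With a gene's probes averaged, Prpf18, Prpf4 and Prpf6 lost the call and Prpf31 was again higher. Prpf39 and Prpf8 were among those that stayed lower under both probe choices. In the GFP IP 2 were higher and 7 lower, with a median of −0.56; with arrays scaled to their medians 3 were higher and 4 lower, with a median of −0.03. Prpf18, which acts in the second catalytic step, had 1.70, 1.83 and 1.87 in the inputs, 0.96 and 1.08 in the PABP1 IPs and 2.97, 2.83 and 2.72 in the GFP IPs. It was higher in the GFP IP by 1.04 ± 0.12 (adjusted p = 2.64e-04) and lower in the PABP1 IP by a difference of −0.78 ± 0.13 (adjusted p = 0.00173), with no overlap of groups; the second probe had −0.68 in the PABP1 IP, with no call (adjusted p = 0.0667). Prpf8, the U5 core protein, was lower in the PABP1 IP by a difference of −1.07 ± 0.13 and stood at −0.06 ± 0.11 in the GFP IP.

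Other PRP mRNAs were lower in both IPs. Prpf39, a U1-associated factor, had 0.16, −0.06 and 0.58 in the inputs, −2.37 and −2.09 in the PABP1 IPs and −2.24, −2.11 and −2.02 in the GFP IPs. The IPs overlapped each other and lay below all inputs, at −2.46 ± 0.21 (adjusted p = 7.73e-05) and −2.35 ± 0.19 (adjusted p = 6.58e-05). The tri-snRNP genes Prpf6 and Prpf3 were also lower in both, at −1.74 ± 0.12 and −1.30 ± 0.26 in the PABP1 IP and −1.47 ± 0.11 and −1.28 ± 0.23 in the GFP IP. Prpf4, another tri-snRNP gene, was the called PRP factor closest to 0 in the PABP1 IP. It had 4.56, 4.51 and 4.10 in the inputs, 3.97 and 3.59 in the PABP1 IPs and 4.0, 4.03 and 3.73 in the GFP IPs. Its PABP1 difference of −0.61 ± 0.20 (adjusted p = 0.0351) lost its call without Input 1, Input 2, PABP1 IP 2 or GFP IP 1, with values of −0.80 to −0.42 and adjusted p up to 0.212.

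Prpf4b, a kinase of the spliceosome, and Prpf38b were close to background on their first probes and varied within groups. Prpf4b had −1.0, −0.51 and 1.87 in the inputs, −5.63 and −3.53 in the PABP1 IPs and −0.17, −1.98 and −0.41 in the GFP IPs, and was well above background on 1 of the 2 PABP1 arrays. Its difference in the PABP1 IP was −4.70 ± 1.02 (adjusted p = 0.0059), the lowest of any member on the first probes and the one with the largest error. The second probe of Prpf4b, well above background on all 8 arrays, stood at −0.35 there (probe difference 4.35 ± 1.10, adjusted p = 0.0169). In the GFP IP over input the probes stood at −0.97 and 1.46 (probe difference 2.43 ± 0.99, adjusted p = 0.0883). The call of Prpf38b in the GFP IP, 1.83 ± 0.62 (adjusted p = 0.0352), was lost when Input 1 or 2, or GFP IP 1 or 3, was left out, with values of 1.48 to 2.38. Prpf38b passed the filter only through the GFP IP, the group where it was then called higher. Its probe was well above background on 2 of 3 inputs, 1 of 2 PABP1 IPs and 3 of 3 GFP IPs. Passing the filter this way favours such a call, which the counts of higher members include. Without PABP1 IP 1, the 6 PRP factors higher in the GFP IP than in the PABP1 IP (9 with arrays scaled to their medians) became 3, both of these genes among those lost.

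The 16 SR and SR-related genes were split in the GFP IP, with 8 higher and 5 lower than in input. The PABP1 IP had 3 higher and 6 lower, and between the IPs 10 were higher in the GFP IP and 1 in the PABP1 IP, or 2 without GFP IP 1. The split followed the current gene names, as seen after the values were known. Of the 10 genes named Srsf or Tra2b, 8 were higher and 0 lower in the GFP IP by limma (9 and 0 at unadjusted p below 0.05), with a median of 1.81. Under each scaling 8 or 9 were higher, and 4 with normexp. The 2 not called by limma, Srsf7 and Srsf4, stood at 0.84 (adjusted p = 0.0689) and −0.03 (adjusted p = 0.873). In the PABP1 IP 3 of the 10, Srsf9, Tra2b and Srsf11, were higher and 0 lower (limma), with a median of 0.33. These counts hold for the first probes. Of the 8 genes with a second probe tested, 4 were higher and 0 lower in the GFP IP on it by limma, and 2 higher and 3 lower (Srsf1, Srsf11 and Tra2b) in the PABP1 IP, with medians of 0.83 and −0.94; between the IPs 5 were higher in the GFP IP. The 6 genes of the class with other current names, which the array lists under older Sfrs names, are called SR-related here. Of these, 0 were higher (0 also at unadjusted p) and 5 lower in the GFP IP, and 6 of 6 were lower in the PABP1 IP. Their median differences were −1.28 and −1.38, and with arrays scaled to their medians 4 and 5 were lower. With the normexp background Clasrp, Sfswap and Sugp2 of this group lost their calls in both IPs. The PABP1 IP call of Clasrp, at −0.42, was also lost without Input 1, Input 2 or GFP IP 3.

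Tra2b, an activator of exon inclusion, had the highest difference of the class in the GFP IP on its first probe. Its signals were 1.88, 1.70 and 1.69 in the inputs, 2.82 and 2.86 in the PABP1 IPs and 4.36, 4.40 and 4.23 in the GFP IPs. The groups formed 3 separate levels, with 2.58 ± 0.11 for the GFP IP (adjusted p = 1.47e-05) and 1.09 ± 0.12 for the PABP1 IP (adjusted p = 2.82e-04) over input. Srsf1, the founding SR protein, had 3.13, 3.11 and 3.39 in the inputs, 2.72 and 3.14 in the PABP1 IPs and 5.49, 5.03 and 5.41 in the GFP IPs. The GFP IPs alone stood apart, at 2.10 ± 0.18 over input (adjusted p = 8.90e-05) and 2.38 ± 0.20 over the PABP1 IP, while the PABP1 IPs overlapped the inputs (−0.28, adjusted p = 0.278). Srsf6, Srsf11, Srsf2 and Srsf3, all of them SR proteins that bind RNA, were higher in the GFP IP by 2.23 ± 0.35, 1.83 ± 0.11, 1.81 ± 0.16 and 1.80 ± 0.33. Srsf5 was higher by 1.16 ± 0.11. Of the second probes in the GFP IP, those of Srsf6 and Srsf2 were higher too, at 1.40 and 1.77, whereas Srsf1, Srsf11 and Srsf5 had no call on theirs, at 0.72 (adjusted p = 0.105), 0.16 (adjusted p = 0.717) and 0.12 (adjusted p = 0.917).

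Srsf9 differed from these in being as high in the PABP1 IP. It had 5.62, 5.43 and 5.33 in the inputs, 6.85 and 6.72 in the PABP1 IPs and 6.89, 6.51 and 6.40 in the GFP IPs. Both IPs lay above all inputs, by 1.32 ± 0.18 (adjusted p = 6.39e-04) and 1.14 ± 0.16 (adjusted p = 7.36e-04), and overlapped each other.

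Among the SR-related genes, Scaf11 had the lowest value in the GFP IP. Its signals were 4.16, 3.92 and 3.70 in the inputs, 1.76 and 1.71 in the PABP1 IPs and 2.13, 2.41 and 2.25 in the GFP IPs. Both IPs lay below all inputs, at −1.66 ± 0.15 (adjusted p = 1.07e-04) for the GFP IP and −2.19 ± 0.17 (adjusted p = 5.48e-05) for the PABP1 IP. Scaf4, Sfswap and Sugp2 were lower in both IPs as well, between −1.56 and −0.87 in the GFP IP, a call that Sugp2 lost with arrays scaled to their medians (−0.33, adjusted p = 0.132). Srek1, which encodes an RNA-binding protein with an SR-like tail, was the exception. It had 1.03, 1.48 and 0.93 in the inputs, −2.57 and −2.90 in the PABP1 IPs and 0.55, 1.85 and 1.27 in the GFP IPs. The GFP IPs overlapped the inputs (0.08 ± 0.33) and the PABP1 IPs lay far below both, at −3.88 ± 0.37 from input (adjusted p = 1.24e-04). Its difference between the IPs, 3.96 ± 0.37 (adjusted p = 7.36e-05), was the highest of any member on the first probes.

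**Figure D3:**
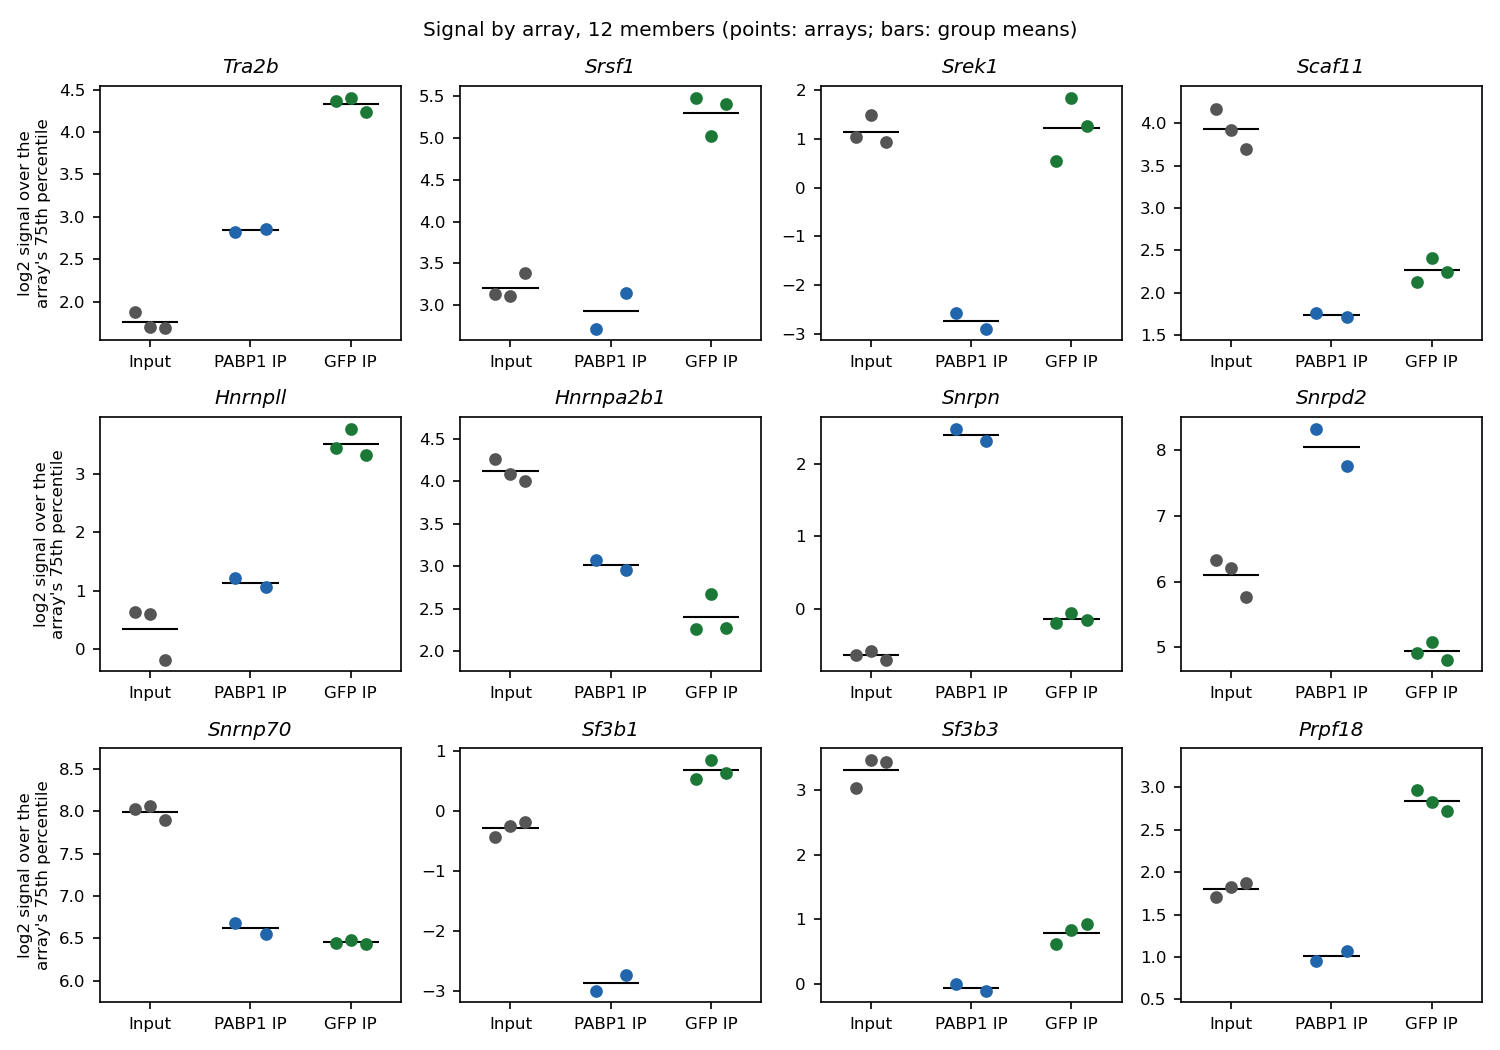
Log2 signal minus the array's 75th percentile (vertical axes, scaled per gene) in the input, PABP1 IP and GFP IP groups for 12 members; points are arrays and bars group means. Tra2b and Hnrnpll have their GFP IP arrays highest, Snrpn and Snrpd2 their PABP1 IP arrays, Srek1 has low PABP1 IP arrays beside GFP IP arrays that overlap the inputs, and Prpf18 has its GFP IP arrays highest and its PABP1 IP arrays lowest.

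Of the 19 tested hnRNP genes, 8 were higher and 5 lower in the GFP IP than in input, or 9 and 3 with arrays scaled to their medians. The PABP1 IP had 5 higher and 5 lower, or 3 and 10 with quantile normalization; without PABP1 IP 1 the higher count was 2, and without PABP1 IP 2 or GFP IP 3 it was 3. Between the IPs 12 were higher in the GFP IP and 5 in the PABP1 IP, 16 and 1 with quantile normalization, and the 5 became 2 without PABP1 IP 1. Hnrnpll, a regulator of alternative exons in lymphocytes, had 0.63, 0.60 and −0.19 in the inputs, 1.22 and 1.06 in the PABP1 IPs and 3.46, 3.79 and 3.34 in the GFP IPs. The GFP IPs lay well above the others, at 3.18 ± 0.25 over input (adjusted p = 6.05e-05), about 9.09-fold and the highest of all members on the first probes. The second probe of Hnrnpll stood at 1.96 there, a probe difference of −1.22 ± 0.18 (adjusted p = 0.00174). Between the IPs the second probe was at 0.87 and the first at 2.39. The first probe's PABP1 IP difference of 0.79 ± 0.27 (adjusted p = 0.0401) was lost without either PABP1 array or without GFP IP 1 or GFP IP 3, with values of 0.53 to 0.93 and adjusted p up to 0.166.

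Hnrnpc, whose protein binds uridine tracts, and Hnrnpf, whose protein binds guanine tracts, were higher in the GFP IP by 2.51 ± 0.10 and 2.29 ± 0.14. Hnrnpa0 and Hnrnpr followed at 1.84 ± 0.13 and 1.42 ± 0.13. Hnrnph1 and Hnrnpm were higher in the GFP IP, at 1.22 ± 0.11 and 0.95 ± 0.19, and lower in the PABP1 IP, at −0.72 ± 0.12 and −1.10 ± 0.21. With Sf3b1 and Prpf18 they made up the 4 members with that pair of calls.

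Hnrnph3, of the same H and F family as Hnrnph1, had the reverse order. Its signals were −1.88, −1.74 and −1.24 in the inputs, −0.21 and 0.01 in the PABP1 IPs and −2.0, −2.45 and −2.38 in the GFP IPs. The PABP1 IPs were highest, 1.52 ± 0.23 over input (adjusted p = 0.00109), and the GFP IPs lowest. Its GFP IP difference of −0.66 ± 0.21 (adjusted p = 0.0266) lost its call without Input 3, GFP IP 2 or GFP IP 3, with values of −0.79 to −0.47, and stood at −0.12 with arrays scaled to their medians (adjusted p = 0.766). Hnrnpu, which encodes a nuclear scaffold protein, had 7.21, 7.08 and 6.87 in the inputs, 5.66 and 5.57 in the PABP1 IPs and 5.64, 5.68 and 5.64 in the GFP IPs. On this probe both IPs lay below all inputs, at −1.44 ± 0.14 (adjusted p = 1.20e-04) in the PABP1 IP and −1.40 ± 0.12 (adjusted p = 8.83e-05) in the GFP IP. The second probe of Hnrnpu stood at −1.73 in the PABP1 IP and at −0.21 in the GFP IP, where it had no call, and the probes differed by 1.20 ± 0.14 in the GFP IP over input (adjusted p = 6.74e-04) and by 1.48 ± 0.16 between the IPs (adjusted p = 3.61e-04). Hnrnpa2b1, a core hnRNP, had 4.26, 4.09 and 4.0 in the inputs, 3.08 and 2.95 in the PABP1 IPs and 2.25, 2.67 and 2.27 in the GFP IPs. It was lower in both, at −1.72 ± 0.15 in the GFP IP (adjusted p = 9.86e-05) and −1.10 ± 0.17 in the PABP1 IP (adjusted p = 0.00117), although its second probe stood at 0.98 in the GFP IP (probe difference 2.70 ± 1.01, adjusted p = 0.0691). The related Hnrnpa1 and Hnrnpa3 were lower in the GFP IP, at −0.81 ± 0.17 and −0.99 ± 0.20, and were not called in the PABP1 IP (0.43, adjusted p = 0.0815, and −0.01). Hnrnpa1 lost its GFP IP call with arrays scaled to their medians (−0.28, adjusted p = 0.211), and Hnrnpa3 with quantile normalization (−0.33, adjusted p = 0.0908) and on its second probe (−0.02).

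Since transcripts of 1 splicing factor gene can differ in exons and introns, the first probe of each gene was set against its second, where both passed the filter. The difference between groups was compared, not the level. Among 44 member pairs, 19 differed in the GFP IP over input, against 41.1% of all 4590 pairs on the array. For the PABP1 IP over input 18 differed, where 42.5% of all pairs did, and between the IPs 14, where 32.6% did. These shares of the member pairs were 43.2%, 40.9% and 31.8%, near those of the array. The pair had the same sign in 33, 32 and 37 of 44 members (75%, 72.7% and 84.1%; over all pairs 71.9%, 73.5% and 76.6%). Pairs that differed by the test and had opposite signs numbered 9, 8 and 4 of the 44. Over all 4590 pairs they numbered 921, 853 and 775, so such pairs are common on the whole array.

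Sf3a1 gave the clearest case in the GFP IP. Its first probe, designed on a RefSeq mRNA, had 4.52, 4.32 and 4.29 in the inputs, 3.45 and 3.37 in the PABP1 IPs and 3.91, 3.72 and 3.68 in the GFP IPs, a difference of −0.61 from input in the GFP IP. The second probe, designed on a RIKEN cDNA clone, had 1.72, 1.60 and 1.36 in the inputs, 0.82 and 0.44 in the PABP1 IPs and 4.02, 3.96 and 3.78 in the GFP IPs. It was 2.36 higher in the GFP IP, so that the probes differed by 2.97 ± 0.15 (adjusted p = 6.97e-05), while in the PABP1 IP they stood at −0.97 and −0.93.

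Zrsr2 gave a similar picture from a pair of RefSeq probes. The second had −2.65, −2.03 and −1.86 in the inputs, −2.85 and −2.44 in the PABP1 IPs and −0.72, −0.82 and −0.55 in the GFP IPs, 1.48 higher in the GFP IP where the first was at −1.56 (probe difference 3.04 ± 0.23, adjusted p = 1.39e-04). For Sf3b1 the second probe had −0.15, −0.11 and −0.17 in the inputs, −1.83 and −2.0 in the PABP1 IPs and −0.85, −0.68 and −0.97 in the GFP IPs. Both Sf3b1 probes were low in the PABP1 IP, at −2.58 and −1.78, and they went apart in the GFP IP, at 0.96 and −0.69 (probe difference −1.65 ± 0.17, adjusted p = 4.05e-04).

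Tra2b, the highest SR gene above, had a second probe that did not follow. It had −0.48, 0.32 and 0.42 in the inputs, −1.52 and −1.39 in the PABP1 IPs and −0.26, 0.22 and 0.18 in the GFP IPs. In the GFP IP it stood at −0.04 and in the PABP1 IP at −1.54, against 2.58 and 1.09 for the first (probe differences −2.62 ± 0.31 and −2.63 ± 0.35, adjusted p = 7.15e-04 and 0.00116). Srsf11 and Srsf6 also had probes of opposite sign in the PABP1 IP. For Srsf11 they stood at 0.45 and −2.55 (probe difference −3.00 ± 0.44, adjusted p = 0.00176), and the first probe's call was lost under 3 of the 4 other scalings, at 0.21 to 0.52. For Srsf6 they stood at 0.80 and −0.60 (probe difference −1.39 ± 0.20, adjusted p = 0.00176).

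Prpf31, which encodes a tri-snRNP protein, had the widest gap with opposite signs in the PABP1 IP. Its first probe had 6.77, 6.60 and 6.26 in the inputs, 5.73 and 5.20 in the PABP1 IPs and 4.36, 4.51 and 4.26 in the GFP IPs. The second had −2.0, −1.84 and −1.48 in the inputs, 0.50 and 0.70 in the PABP1 IPs and −1.96, −2.13 and −1.79 in the GFP IPs. The first stood at −1.07 in the PABP1 IP and the second at 2.37, a probe difference of 3.44 ± 0.37 (adjusted p = 4.47e-04).

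Hnrnpul1, an hnRNP U-like gene, had a first probe with 5.0, 4.93 and 4.65 in the inputs, 4.65 and 4.45 in the PABP1 IPs and 4.70, 4.67 and 4.63 in the GFP IPs. Its second probe had −2.02, −1.94 and −1.89 in the inputs, −0.17 and −0.25 in the PABP1 IPs and −2.20, −2.0 and −2.24 in the GFP IPs. The second was thus 1.74 higher in the PABP1 IP where the first stood at −0.31, while in the GFP IP they were at −0.20 and −0.19. Hnrnpdl, related to hnRNP D, had a first probe with 0.53, 0.85 and 1.54 in the inputs, −0.19 and 0.23 in the PABP1 IPs and 1.46, 1.03 and 1.07 in the GFP IPs. Its second probe had −0.04, 0.38 and 0.45 in the inputs, 1.11 and 1.21 in the PABP1 IPs and 0.96, 0.82 and 0.88 in the GFP IPs. In the PABP1 IP they stood at −0.95 and 0.90 (probe difference 1.85 ± 0.23, adjusted p = 9.35e-04); the first probe's own call was lost without Input 2 or either PABP1 array, with values of −1.17 to −0.67.

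Snrpa, the U1 protein of the second stem-loop, had a first probe, designed on another cDNA, with 5.68, 5.92 and 6.03 in the inputs, 5.56 and 5.64 in the PABP1 IPs and 5.79, 5.53 and 5.55 in the GFP IPs. Its second had 2.67, 2.67 and 2.85 in the inputs, 3.53 and 3.70 in the PABP1 IPs and 3.21, 3.02 and 3.22 in the GFP IPs. The first was at −0.28 in the PABP1 IP and −0.26 in the GFP IP, and the 3 other probes, all designed on RefSeq mRNAs, were at 0.88, 1.48 and 1.32 in the PABP1 IP and 0.42, 1.27 and 1.11 in the GFP IP. Over all members, 80 further probes without an outlier spot were present, of which 63 passed the filter; the sign of the first probe was shared by 42 of these for the GFP IP over input, by 45 for the PABP1 IP over input and by 50 for the IPs against each other. Where on the transcript each probe lies was not tested.

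**Figure D4:**
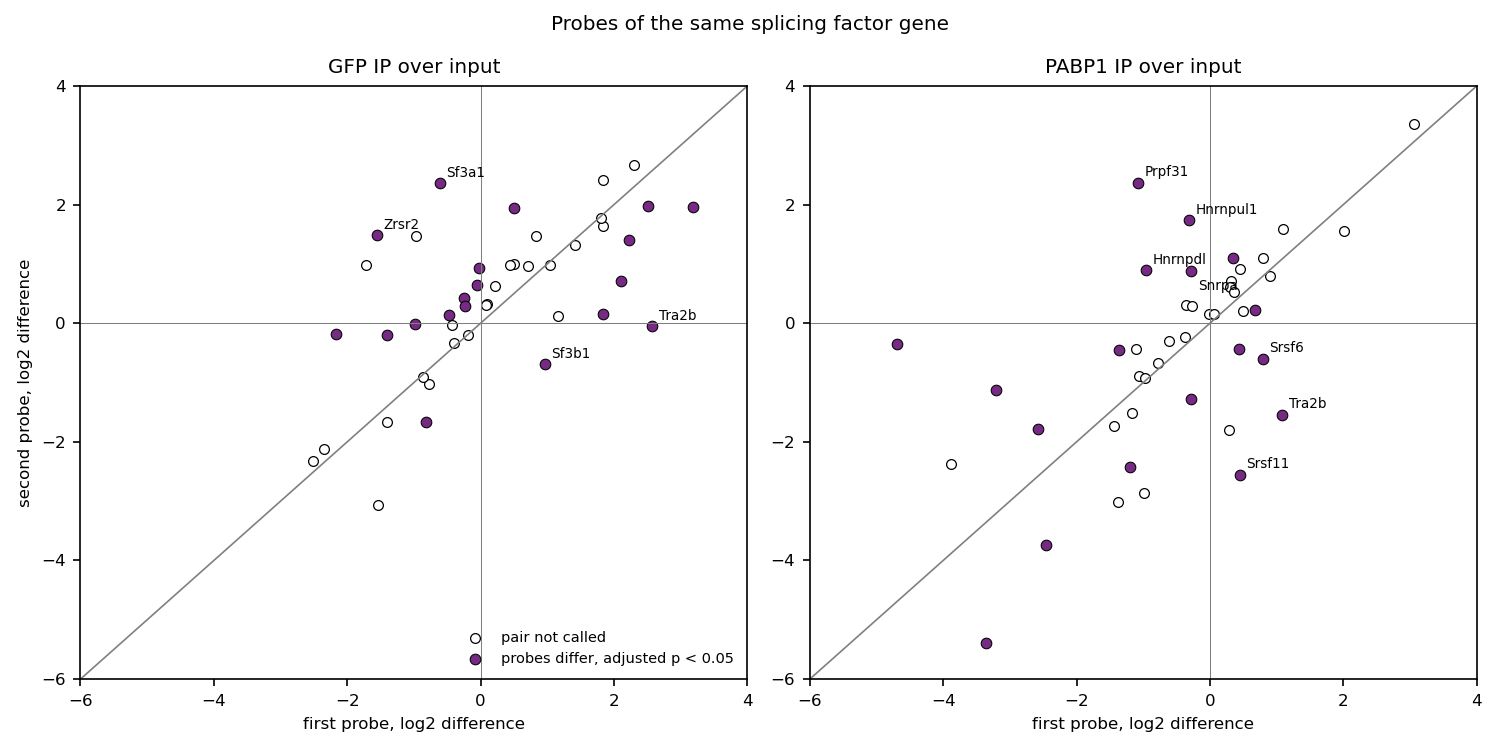
Log2 difference from input given by the second probe (vertical axis) against the first probe (horizontal axis) of the same member, for the GFP IP (left) and the PABP1 IP (right); filled points are pairs whose probes differ at adjusted p below 0.05, and named points also have opposite signs and a gap over 1. Sf3a1 and Zrsr2 lie far above the line of equality in the GFP IP and Prpf31 in the PABP1 IP, and Tra2b lies far below it in both.

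Other genes of the pathway, 122 in 8 lists, were read from the same fit. Of the 121 tested, 38 (31.4%) were higher and 51 (42.1%) lower in the GFP IP than in input, where 21.4% and 43.3% of all genes were. In the PABP1 IP 37 (30.6%) were higher and 51 (42.1%) lower, where 34.4% and 25.3% of all genes were. With arrays scaled to their medians these were 44 and 27, and 38 and 43. Of 19 tri-snRNP and Lsm genes 11 were higher and 5 lower in the PABP1 IP, with a median of 1.06, led by Lsm5, an Sm-like ring protein, at 2.38 ± 0.19, and with Ddx23, a U5 helicase, lowest at −2.40 ± 0.62, well above background on 1 of the 2 PABP1 IP arrays. Of 7 minor spliceosome genes 4 were higher and 0 lower in the PABP1 IP by limma, with the same counts at unadjusted p. Pdcd7 of that list was higher in both IPs, at 1.20 ± 0.16 and, in the GFP IP, 2.78 ± 0.14. Of 14 snRNP assembly genes 6 were higher and 4 lower in the PABP1 IP, from Gemin6, of the SMN complex, at 2.59 ± 0.13 to Tgs1, the cap hypermethylase, at −3.10 ± 0.22, and in the GFP IP 2 were higher and 7 lower (3 and 4 with arrays scaled to their medians).

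The 30 tested splicing regulators outside the member families had 15 higher and 11 lower in the GFP IP, or 15 and 7 with arrays scaled to their medians. In the PABP1 IP 2 were higher and 19 lower, with a median of −0.97. Ptbp2, the neural polypyrimidine tract protein, was highest in the GFP IP at 2.79 ± 0.19 and Khsrp lowest at −3.19 ± 0.77. In the PABP1 IP Rbmx was lowest, at −3.57 ± 0.16, and Pcbp2, a poly(C) binding protein, highest, at 2.00 ± 0.21. Among the 7 kinases of SR proteins, 1 was higher and 6 lower in the PABP1 IP; Clk1 was at −1.97 ± 0.20 there and −2.11 ± 0.18 in the GFP IP. Of 12 U1 and U2 associated genes, 6 were higher and 4 lower in the GFP IP and 2 higher and 4 lower in the PABP1 IP, with Smndc1 at 3.17 ± 0.39 in the GFP IP and Ddx46, a branch point helicase, at −4.74 ± 0.35 in the PABP1 IP. The exon junction complex (11 genes) had 3 higher and 5 lower in the GFP IP (3 and 1 with arrays scaled to their medians) and 5 higher and 4 lower in the PABP1 IP, and the genes of the Prp19-related complex and the catalytic steps (21) had 2 and 11, and 6 and 9. The shares lower in the GFP IP, 45.5% for the exon junction complex and 52.4% for the catalytic list, are to be read against the 43.3% of all genes, and so are the 7 of 14 snRNP assembly genes.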

How the data were processed

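RNA of 8 samples was measured on 1-colour Agilent arrays of design 014868. The deposited processed intensity came, per the file headers, from the protocol GE1-v5_95_Feb07 of Feature Extraction 9.1.3.1; flags for outlier spots, saturation and signal well above background, values of another kind than brightness, were deposited beside it. The authors also deposited a table of mean intensity per group, with a scaling that is not stated. Here the intensity was taken to log2, the 75th percentile over the 43379 probe spots of each array was subtracted, and spots of a probe were averaged; outlier spots removed 32 probes, 1 of them of a member. Genes were named through a RefSeq table of assembly GRCm38.p6 (69 members by accession, 2 by symbol, 4 by synonym). No genome build of the array is stated, so no coordinates are given, and probe sequences were not used here.

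All 14676 tested genes were fitted in limma 3.58.1 (R 4.3.3) on all 8 arrays with the group as the only term, with lmFit, eBayes and Benjamini-Hochberg adjustment at 0.05 (5 residual and 2.10 prior degrees of freedom); PABP1 IP has 2 arrays, so the spread is pooled over groups. ± is the standard error of that fit. Probe pairs were fitted likewise. The fits were tested on simulated data. The number of arrays limits the precision of these values. Values per array are given for the highest and lowest called member of each class in each comparison with input, for both ends of the comparison between the IPs, and for up to 8 genes with opposite probes; Srsf1 was added after its values were seen, and 1 member that the rule picks is not reported here. Of each pathway list at most the ends were named. Members and lists were chosen with earlier results of these data known. Whether the replicate numbers pair the samples is not known. Deviations of same-numbered arrays correlated between −0.74 and 0.62. Those of arrays on the same slide were all positive and those across slides all negative. With 2 PABP1 IP arrays, their deviations mirror each other, so this check cannot exclude pairing. Alternatives covered scaling, background, filter, probe choice, slide, replicate block, array weights and each array left out.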

Additional observations from a re-analysis of the deposited data

How the results depend on the processing

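Over the alternatives, 62 called values of the 27 genes given by array kept direction and call in 1236 cases, kept only the direction in 136 and changed sign in 16. Leaving out 1 array at a time changed 16 of 52 calls between the IPs, 9 of 53 in the GFP IP over input and 9 of 49 in the PABP1 IP over input. Replicate numbers were shared between groups, and whether they pair the samples is not known. With the replicate number as a block the counts higher and lower were 24 and 27 in the GFP IP, 19 and 28 in the PABP1 IP and 29 and 19 between the IPs. Over all genes they were 3121 and 6333, 4779 and 3672, and 3360 and 6452.

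The median member in the GFP IP over input was 0.32 with arrays scaled to their medians, −0.051 with the percentile over detected probes, 0.092 with quantile normalization, −0.12 with arrays centred on the median gene, 0.13 with a gene's probes averaged, 0.30 with the second probe and 0.22 in the authors' deposited table, which matched 41 members. Between the IPs it was 0.67, 0.61, 0.78, 0.34, 0.42, 0.76 and 0.50 in the same order, −0.065 with the normexp background, 0.14 over genes above background on all arrays and 0.31 on slide 2. It was 0.13 to 0.32 with an array left out. In the PABP1 IP over input it was −0.51 with the percentile over detected probes, −0.56 with quantile normalization, −0.00137 with normexp and −0.28 to −0.19 with an array left out. With the normexp background (offset 50) the counts higher and lower were 8 and 9, 9 and 7, and 10 and 11, and the differing probe pairs 7, 4 and 4. Lower members in the GFP IP numbered 16 with arrays scaled to their medians and 18 with the second probe or on slide 2, and 11 were lower between the IPs with quantile normalization. Pairs that differed between the IPs were 25 with the slide as a block, and in the PABP1 IP over input 11, without PABP1 IP 1, to 19 with an array left out. Where 1 array of a group was left, it was assumed to vary like the other groups. In the medians and counts given with the second probe, genes without a second probe kept their first. In that setting 65 members were tested.

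Signs changed with the probe used. With the second probe, Hnrnpa2b1 was at 0.98 in the GFP IP and 1.41 between the IPs, Hnrnpdl at 0.90 in the PABP1 IP and −0.28 between the IPs, Prpf31 at 2.37 in the PABP1 IP, Sf3a1 at 2.36, Sf3b1 at −0.69, Zrsr2 at 1.48 and Tra2b at −0.043 in the GFP IP, and Tra2b at −1.54 in the PABP1 IP. With the mean of probes, Hnrnpa2b1 was at 0.40 between the IPs, Prpf31 at 0.65 and Tra2b at −0.23 in the PABP1 IP, and Sf3a1 at 0.88 in the GFP IP. Sf3b5 in the GFP IP was at 0.11 with arrays scaled to their medians and 0.15 in the authors' deposited table. Other causes of these shifts were not tested.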
